A study of Mus musculus with 6 samples.

Results

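RefSeq gives transcripts without a protein product accessions that start with NR_, and those of messenger RNAs start with NM_. The members described here were the non-control probes of a mouse one-colour Agilent array whose target accession starts with NR_, 2477 of 56605 probes or 4.38%. They cover 2341 accessions, and 2406 of them carry a gene symbol in the RefSeq gene table used for names. The symbols of 1901 probes are clone, locus or predicted names, which by themselves tell nothing of function. The RNA came from a mouse glioblastoma stem cell line that grows as neurospheres and was derived from brain tumours induced with the Sleeping Beauty (SB) transposon. There were 3 control arrays, from cells transduced with a lentiviral non-target hairpin, and 3 knockdown arrays, from the same line transduced with a lentiviral hairpin against Ggct. Ggct encodes gamma-glutamylcyclotransferase, an enzyme of glutathione breakdown, and the series asks what its suppression does to gene expression. The titles name the same line and a single knockdown hairpin throughout, so loss of Ggct and other effects of that hairpin cannot be told apart. The medium of both groups was serum-free and held EGF and bFGF. Each control array shares the date in its title with 1 knockdown array, which gives 3 pairs.

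Long non-coding RNAs are transcribed and spliced much like messenger RNAs, and most are made at low levels and in few cell types. Some act in the nucleus (Neat1 builds paraspeckles, and Kcnq1ot1 and Xist silence genes in cis), some host small nucleolar RNAs (snoRNAs) or microRNAs in their introns, and many have no known role. The NR_ class also holds pseudogene transcripts, messenger isoforms not thought to be translated, and short structural RNAs of the spliceosome, ribosome, RNase P, RNase MRP and telomerase. The labelling kit primes complementary DNA on poly(A) tails, which most long non-coding RNAs have and most structural RNAs lack.

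The start regions of 4 genes among those that passed the test below are shown because they belong to 3 of the genes that rose and 1 that fell. Each window is 300 bases, from 250 before to 50 after the RefSeq start on mouse build GRCm38.p6, written 5′ to 3′ along the gene. Capitals mark a match, on either strand, to any of 7 motifs searched. These were the interferon response element, the AP-1 site with the letters TGANTCA, and the RBPJ site of the Notch pathway with the letters GTGGGAA. The E-box searched was CACGTG. The TATA box was searched as TATAAA and the CCAAT box as its name reads. The last was the pyrimidine run CTTTCC, which appears in reverse complement where it lies on the other strand. Matches of different motifs may overlap.
4631405J19Rik, chr2:93029098-93029397, strand plus: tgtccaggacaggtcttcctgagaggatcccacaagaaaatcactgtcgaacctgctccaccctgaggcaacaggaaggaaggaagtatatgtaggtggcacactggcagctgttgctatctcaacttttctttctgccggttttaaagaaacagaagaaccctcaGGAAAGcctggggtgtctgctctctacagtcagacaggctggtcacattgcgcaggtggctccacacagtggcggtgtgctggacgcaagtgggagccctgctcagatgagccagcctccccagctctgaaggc
2310040G24Rik, chr6:86488178-86488477, strand minus: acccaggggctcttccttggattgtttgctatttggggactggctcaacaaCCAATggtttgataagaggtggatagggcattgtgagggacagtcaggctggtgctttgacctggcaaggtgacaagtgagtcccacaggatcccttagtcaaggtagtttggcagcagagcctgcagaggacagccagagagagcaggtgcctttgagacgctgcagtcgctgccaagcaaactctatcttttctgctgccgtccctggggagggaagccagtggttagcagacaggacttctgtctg
D630024D03Rik, chr11:31824498-31824797, strand minus: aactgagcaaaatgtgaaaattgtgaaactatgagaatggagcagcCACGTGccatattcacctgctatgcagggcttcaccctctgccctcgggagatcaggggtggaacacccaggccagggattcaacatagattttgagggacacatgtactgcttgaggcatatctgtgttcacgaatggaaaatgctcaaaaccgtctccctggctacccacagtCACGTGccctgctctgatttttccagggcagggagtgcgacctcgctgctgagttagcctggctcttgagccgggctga
4930509E16Rik, chr9:72531809-72532108, strand minus: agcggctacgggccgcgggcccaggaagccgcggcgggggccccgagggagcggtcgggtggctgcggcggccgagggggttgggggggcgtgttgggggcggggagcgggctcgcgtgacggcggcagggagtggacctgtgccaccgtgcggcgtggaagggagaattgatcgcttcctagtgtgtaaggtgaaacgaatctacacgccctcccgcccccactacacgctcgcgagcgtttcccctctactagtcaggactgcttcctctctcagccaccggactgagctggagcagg
The D630024D03Rik window holds 2 CACGTG matches, and the window of 4930509E16Rik, a gene that fell, holds none of the 7 motifs. The promoter table had windows for 12 of the 18 called genes with a symbol, 12 windows of 11 genes that rose and 1 window of a gene that fell. Among the 12 windows of rising genes, 0 held the interferon response motif, 0 the AP-1 motif and 0 the TATA box. The corresponding shares of all 32851 windows in the table were 3.44%, 7.81% and 13.6%. CACGTG was in 2 of the 12 (7.15% of all windows), CCAAT in 6 (37.4%), GTGGGAA in 1 (6.38%) and CTTTCC in 2 (26.6%). Among the 568 windows of genes with a tested NR_ probe, the interferon, AP-1 and TATA shares were 2.82%, 7.75% and 9.51%. There CACGTG was in 10.7%, CCAAT in 40.5%, GTGGGAA in 5.46% and CTTTCC in 27.8%. With 12 windows these counts describe the letters and say nothing of the factors.

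Ggct was checked first. Its normalised log2 signal, the log2 intensity minus the 75th percentile of the array, was 3.32, 3.72 and 3.70 on the control arrays and 0.22, 0.91 and 0.70 on the knockdown arrays. It fell by 2.97 ± 0.21 (SE) on the log2 scale, to 12.7% of control (limma adjusted p = 0.0147, and 0.0742 with the pair as a replicate block). Of 7 glioma stem cell and neural progenitor markers, 6 (Nes, Sox2, Prom1, Cd44, Sox9 and Vim) were well above background on all 6 arrays and Olig2 was on none. Of 7 microglial and macrophage markers, Csf1r and Itgam were on all 6 and Ptprc, Aif1, Cx3cr1 and C1qa on none. Also on all 6 were 2 of 5 endothelial (Cdh5, Pecam1), 2 of 5 fibroblast and pericyte (Dcn, Pdgfrb), 3 of 4 neuronal (Snap25, Syt1, Tubb3) and 1 of 4 astrocyte markers (Slc1a3). On none were Cldn5 and Kdr, Lum and Rgs5, and Rbfox3. The log2 summed signal of the astrocyte markers was -2.0 to -1.46 in control and -1.36 to -0.77 in knockdown, and that of the fibroblast and pericyte markers -0.79 to -0.11 and -0.07 to 0.15, neither overlapping. The ranges of the other 4 of these lists overlapped, and none of their markers passed the test described below. The part of these markers in the NR_ results was not tested. All arrays were on 1 slide with 1 scan date, their 75th percentile intensity ran from 531.5 to 867.0 units, and no probe was saturated.

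Non-coding probes were detected less often than coding probes. An NR_ probe was called detected, and tested, where the scanner software marked it well above background on 3 or more of the arrays. This held for 899 of the 2476 NR_ probes with usable spots (36.3%) and for 66.9% of the 29631 NM_ probes. On all 6 arrays 31.5% of NR_ and 63.6% of NM_ probes were detected, and on none 59.3% and 30.2%. By array the NR_ share was 34.2%, 35.3% and 36.7% in control and 38.0%, 35.5% and 35.2% in knockdown, against 65.2% to 67.8% of NM_ probes. The groups overlapped. The control arrays had a mean NR_ share of 35.4% ± 1.26 (SD, n = 3) and the knockdown arrays one of 36.2% ± 1.51 (SD, n = 3), a difference not beyond the spread (exact two-sided permutation p = 0.6, where 0.1 is the smallest that 3 against 3 arrays allow).

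The detected non-coding probes were also dimmer as a class. The median of tested NR_ probes minus that of tested NM_ probes was -2.84 ± 0.12 log2 units (SD, n = 6 arrays). Over every probe the gap was -5.05 ± 0.10 (SD, n = 6), and -1.71 with the normexp background correction, but most NR_ probes were on no array above background, so that NR_ median lies at background. Of tested probes, 27.1% of NR_ and 57% of NM_ had a mean above the 75th percentile of the array. Among tested probes the control arrays had a gap of -2.89 ± 0.138 (SD, n = 3) and the knockdown arrays one of -2.79 ± 0.0872 (SD, n = 3), which did not differ beyond the spread (exact two-sided permutation p = 0.4). Both exact tests had an adjusted p of 0.6 over the pair of tests. Brightness depends on each probe's own sequence, so these are distributions of signal and not RNA amounts set against each other.

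**Figure D1:**
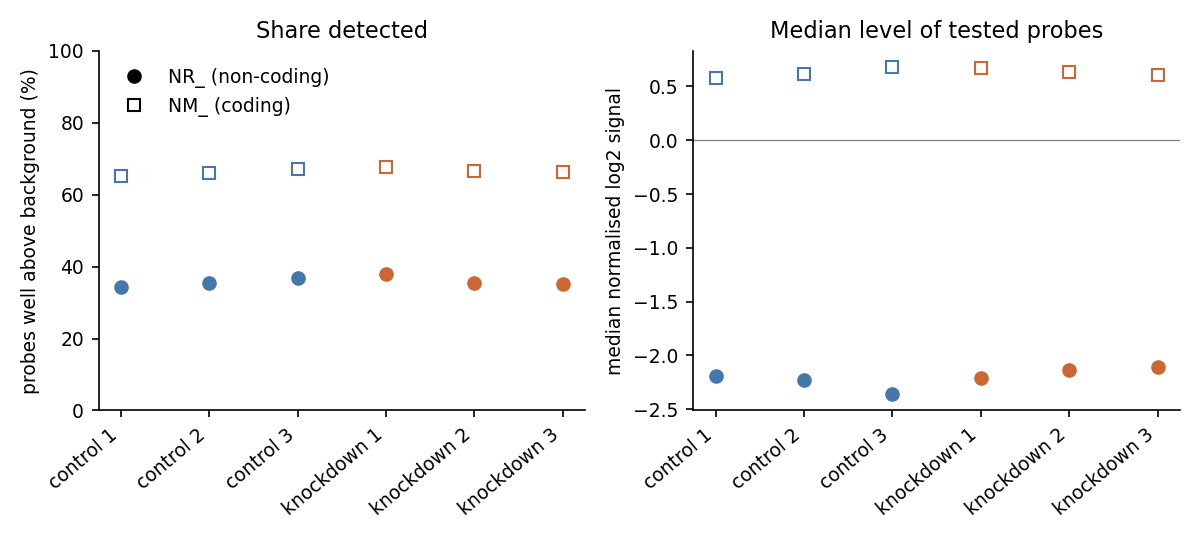
Left, the share of NR_ (filled circles) and NM_ (open squares) probes well above background on each array, in percent. Right, the median normalised log2 signal of the tested probes of each class, with control arrays in blue and knockdown arrays in orange. On every array the NR_ share lies between 34.2% and 38.0%, below the NM_ share of 65.2% to 67.8%, and the NR_ median lies below the NM_ median.

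Detection differed between kinds of non-coding RNA. All 30 structural and small RNAs (spliceosomal, nucleolar, RNase P and MRP, telomerase, vault, signal recognition particle and 7SK RNAs, with 2 rRNA entries) were detected on all 6 arrays. Of 26 probes for host genes, 21 were tested, with a median normalised log2 signal of 2.88, against 0.63 for NM_ probes. Pseudogenes were tested in 141 of 286 cases, non-coding transcripts of coding genes in 33 of 51, and other named RNAs in 64 of 127. Antisense RNAs were tested in 54 of 154 cases and clone or predicted transcripts in 512 of 1732 (29.6%). Their medians were -2.90 and -2.95, against -2.27 for all tested NR_ probes. The remaining 44 tested probes, of 70, had an accession without a name in the table.

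In the comparison of knockdown with control, 20 of the 899 tested NR_ probes passed an adjusted p below 0.05 (limma, Benjamini-Hochberg over all 31804 probes tested). That was 2.22% of NR_ probes, against a background of 1.75% of all probes and 1.99% of NM_ probes, so non-coding probes passed at a share near that of the array. By direction, 18 rose (2%, against 1.16% of all probes) and 2 fell (0.222%, against 0.591%). At an unadjusted p below 0.05 there were 181 NR_ probes, or 20.1%, against 19.1% of all probes. Groups did not overlap, with knockdown higher, for 154 NR_ probes (17.1%, background 14.5%), and with knockdown lower for 89 (9.9%, background 12.4%). Of the tested NR_ probes, 8 were detected throughout one group and nowhere in the other, and so entered the test through their high group. Without these, 17 of 891 NR_ probes passed (16 higher, 1 lower), or 1.91%, against 1.59% of all probes left after the same step. The median log2 difference was 0.04 over the NR_ probes and -0.01 over all probes.

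Every one of the 20 moved the same way in the 3 pairs and had groups that did not overlap. Their adjusted p lay between 0.0341 and 0.0495, close to the threshold, and 12 changed at least 2-fold. They sat low in the range of signal, 18 of the 20 with a mean below the 75th percentile of the array. These calls depended on the full set of arrays. With the pair as a replicate block, limma called 0 of all 31804 probes. For NR_ probes the lowest adjusted p was then 0.0742, with 165 at an unadjusted p below 0.05. Without control replicate 1, 2 or 3, or without knockdown replicate 2 or 3, it also called 0 NR_ probes (129 to 184 at an unadjusted p below 0.05). Of all probes it called 0 in each of these fits, except 45 (0.141%) without knockdown replicate 2. Without knockdown replicate 1 it called 5 NR_ probes (0.556%, against 0.604% of all probes), of which 4 were among the 20. The count was 58 with 1 probe for each named gene (42 rose and 16 fell, added after seeing the data), or 7.48% against 7.41% of all named genes. With normexp on median signals it was 7, or 0.779% against 1.58% of all probes. All 20 kept an unadjusted p below 0.05 in the blocked and leave-one-out fits, but they were selected for a low p on the same arrays. This is therefore not separate support. Their direction could not turn in those fits, since the groups do not overlap.

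**Figure D2:**
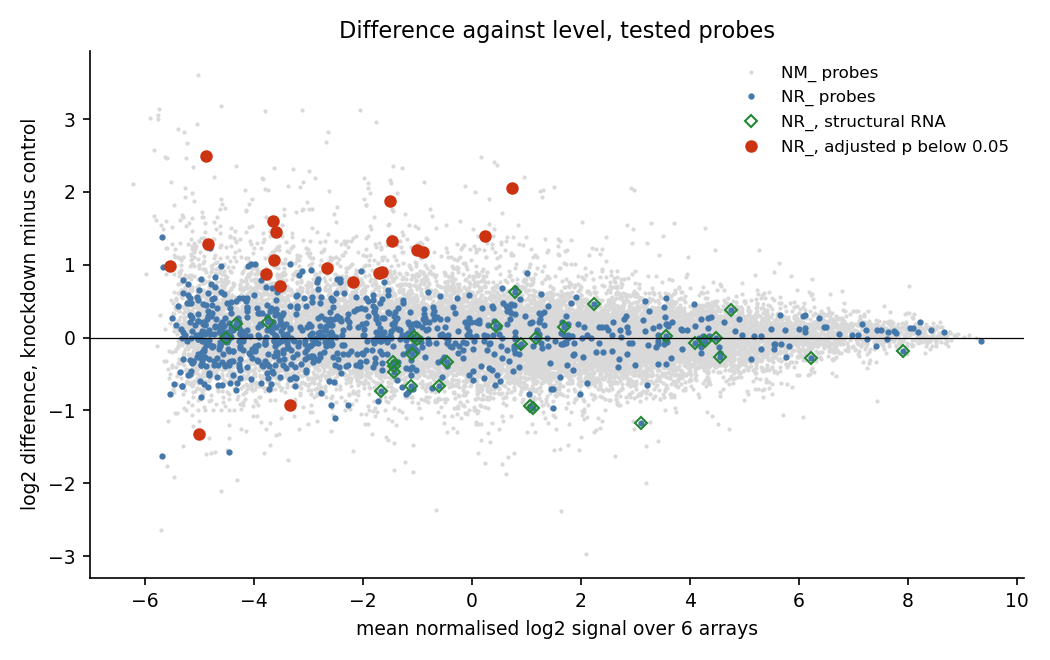
Log2 difference (knockdown minus control) against the mean normalised log2 signal over 6 arrays for each tested probe: NM_ probes in grey, 899 NR_ probes in blue, the 30 structural RNAs as green diamonds and the 20 NR_ probes with an adjusted p below 0.05 in red. The red points lie mostly at low signal, 18 above and 2 below 0.

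The clone and predicted transcripts, 57% of the tested NR_ probes, held 15 rises and 1 fall among 512, or 3.12%, against 1.03% of the other 387 NR_ probes and 1.75% of all probes. This difference between classes was not tested. Clone probes were also dim, with a median of -2.95. Among NM_ probes, 59 of 1751 passed at a mean below -4, 79 of 3037 from -4 to -2 and 101 of 3739 from -2 to 0. At higher means, 99 of 4547 passed from 0 to 2 and 56 of 6735 above 2. The part of signal level in the clone share was not tested. Of the named symbols outside the clone names, the pseudogene Olfr1372-ps1 was the member that passed on all 6 arrays. The largest rise measured on all 6 arrays was that of 4631405J19Rik (NR_110333), whose signal was -0.16, -0.81 and 0.08 in control and 1.81, 1.40 and 2.06 in knockdown. All 3 knockdown values lay above all 3 control values. The log2 difference was 2.05 ± 0.27 (SE), or 4.14-fold (adjusted p = 0.0363, and 0.0742 with the replicate block). This gene overlaps the coding gene Prdm11, a member of the PRDM family of zinc finger and histone methyltransferase-like proteins, whose own probe differed by 0.55 ± 0.13 (SE; adjusted p = 0.0881).

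9030619P08Rik (NR_108041) is a pseudogene whose nearest coding gene, not within 1 kb, is Ly6l, of the Ly6 family of membrane-anchored proteins. It read -2.05, -2.61 and -2.66 in control and 0.14, -1.04 and -0.77 in knockdown. The highest value was on knockdown replicate 1, and the groups did not overlap. It rose 3.68-fold, a log2 difference of 1.88 ± 0.33 (SE; adjusted p = 0.0472).

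2310043L19Rik (NR_037994), a long non-coding RNA with a clone name, was at -4.30, -4.31 and -4.76 in control and -2.31, -3.25 and -2.99 in knockdown. It rose 3.04-fold (log2 difference 1.60 ± 0.27 SE; adjusted p = 0.0437), but 1.57-fold with normexp (adjusted p = 0.121). 1700124L16Rik (NR_105027) was at -0.36, -0.28 and -0.69 in control and 1.31, 0.69 and 0.82 in knockdown. It rose 2.62-fold (1.39 ± 0.20 SE on the log2 scale; adjusted p = 0.0393). The knockdown array of replicate 1 had the highest value in both.

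D630024D03Rik was measured by a probe for each of 2 transcripts, and both rose. The NR_102310 probe read -1.99, -2.10 and -2.30 in control and -0.37, -1.05 and -1.01 in knockdown, a log2 difference of 1.32 ± 0.21 (SE; adjusted p = 0.0422). The NR_102312 probe read -4.01, -4.87 and -4.08 against -2.79, -2.93 and -2.89, a log2 difference of 1.45 ± 0.24 (SE; adjusted p = 0.0436), which was 0.54 with normexp (adjusted p = 0.0908). The probes share a gene, so they are not separate evidence. Its nearest coding gene is Cpeb4, which encodes an RNA-binding protein of the CPEB family, and the Cpeb4 probe differed by 0.57 ± 0.36 (SE; adjusted p = 0.452).

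The lowest adjusted p of any NR_ probe, 0.0341, was that of 2310040G24Rik (NR_040293). It was at -1.60, -1.70 and -1.53 in control and -0.25, -0.65 and -0.34 in knockdown, a tight pair of groups, and rose 2.29-fold (log2 difference 1.2 ± 0.15 SE). Olfr1372-ps1 (NR_034155), an olfactory receptor pseudogene, was at -2.93, -3.18 and -3.32 in control and -2.04, -2.27 and -2.25 in knockdown. It rose 1.95-fold (0.96 ± 0.15 SE on the log2 scale, adjusted p = 0.041). A second probe for the same transcript differed by 0.99 ± 0.34 (SE, limma adjusted p = 0.182) and did not pass.

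Of the 8 probes detected in 1 group only, 3 passed. They entered the test through their high group and so had to differ, and their adjusted p is given for completeness. Each has only a bound on its fold, which holds for the signal as processed by the scanner software. NR_033577, which has no symbol in the table, was detected on the knockdown arrays alone, at -2.89, -4.33 and -3.65 against measured control values of -6.61, -6.14 and -5.64. It was at least 3.24-fold higher in knockdown (adjusted p = 0.041). 3110015C05Rik (NR_045908), also detected in knockdown alone, was at least 1.21-fold higher (adjusted p = 0.0434). In the other direction, the non-coding Sytl2 transcript NR_110348 was detected in control alone, at -4.34, -4.41 and -4.26 against measured knockdown values of -5.54, -6.14 and -5.31. It was at least 2.02-fold lower in knockdown (adjusted p = 0.044). Sytl2 encodes a Rab27-binding protein of vesicle transport, and the brightest coding probe of the gene differed by -0.64 ± 0.27 (SE; adjusted p = 0.252), in the same direction but not past the threshold. With normexp on median signals the log2 differences of these probes were 0.58 for NR_033577, 0.08 for 3110015C05Rik and -0.36 for Sytl2, smaller than each bound, and none passed (adjusted p 0.12, 0.912 and 0.273). The bound sets the mean of the detected group against the higher, array by array, of the dim probe's own signal and the lowest signal marked well above background.

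A further 5 probes were on every array of 1 group and none of the other without passing: 9330179D12Rik, Ager, Atcayos and Srrm4os in knockdown (adjusted p from 0.0973 to 0.206) and 2610037D02Rik in control (adjusted p = 0.17). For 2610037D02Rik, a clone transcript, the control values were -4.55, -4.74 and -5.31 and the measured knockdown values -7.70, -5.41 and -6.40. All 5 entered the test through their high group and so had to differ, so the lack of overlap in 2610037D02Rik is no support. Its knockdown signal was at least 1.4-fold lower.

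The other fall was that of 4930509E16Rik (NR_045735), which lies next to Rfx7, the gene of an RFX-family transcription factor. It was at -2.87, -2.75 and -2.99 in control and -4.05, -3.69 and -3.65 in knockdown and fell by 0.93 ± 0.16 (SE) on the log2 scale (adjusted p = 0.0455). The Rfx7 probe differed by 0.19 ± 0.13 (SE; adjusted p = 0.511).

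The remaining 8 probes that passed, all clone or predicted names, all rose, and they are named here with their values in view. 2900041M22Rik rose 2.24-fold and 1500026H17Rik 2.08-fold, the latter 1.36-fold with normexp (adjusted p = 0.175). 6430562O15Rik, 9330133O14Rik and AA543186 rose 1.87-, 1.85- and 1.84-fold, and 1600002D24Rik and 2010001A14Rik 1.69- and 1.64-fold. Gm11733 had a measured log2 difference of 1.28 ± 0.23 (SE; adjusted p = 0.048). It was well above background on 3 knockdown arrays but on a single control array, so its control level is mostly not above background, and with normexp the difference was 0.26 (adjusted p = 0.505).

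The nearest coding genes of the called transcripts were set beside them. Of 17 neighbouring genes, 13 had a tested coding probe and 0 passed (limma; lowest adjusted p 0.0881, for Prdm11), with log2 differences from -0.40 to 0.57. Mvd, of the mevalonate pathway and next to 9330133O14Rik, was the lowest at -0.40 ± 0.14 (SE; adjusted p = 0.177). Mrps27, a mitochondrial ribosomal protein gene that overlaps 6430562O15Rik, was at -0.24 ± 0.17 (SE; adjusted p = 0.501). Tnrc6c, of microRNA silencing, is the coding gene nearest to 2900041M22Rik but not within 1 kb of it. It was at -0.21 ± 0.13 (SE, adjusted p = 0.46).

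**Figure D3:**
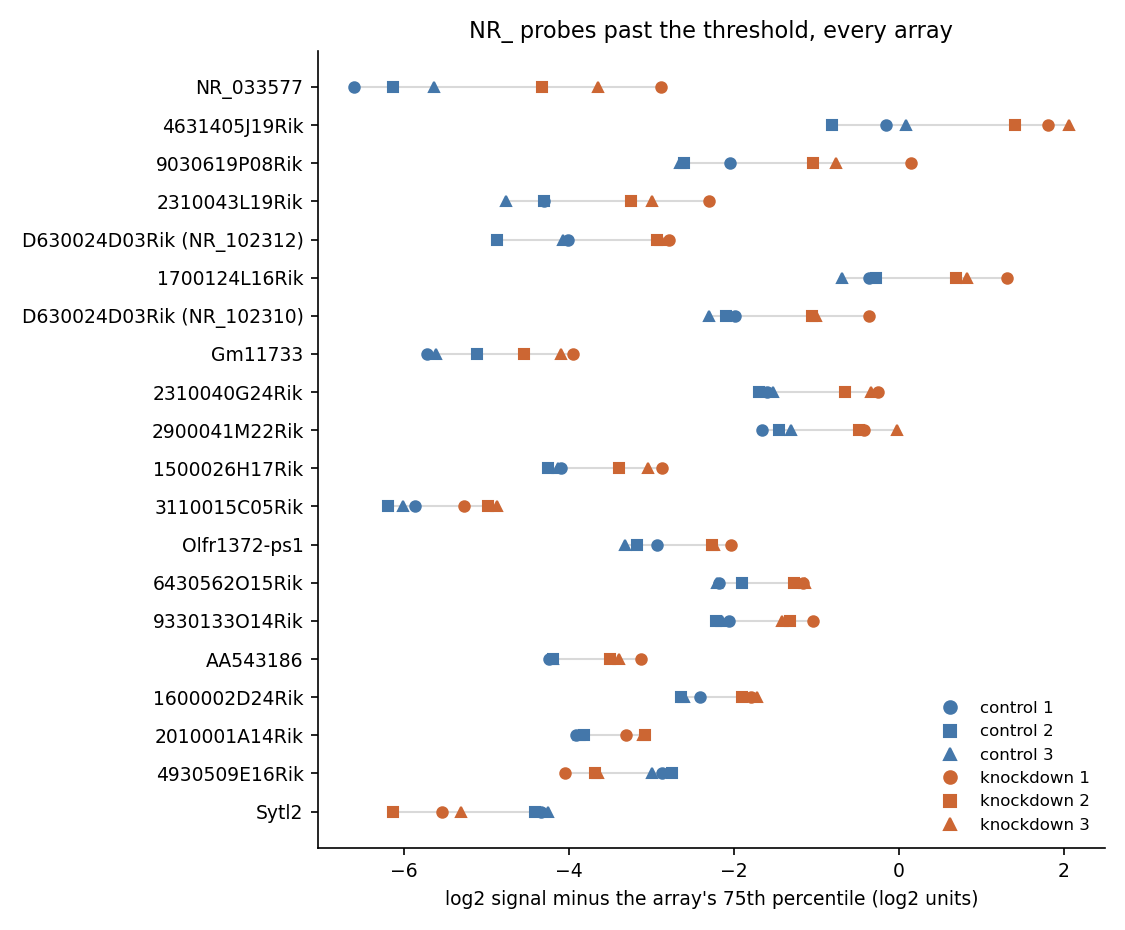
Normalised log2 signal (log2 intensity minus the 75th percentile of the array) of the 20 NR_ probes with an adjusted p below 0.05, one row a probe, with control arrays in blue and knockdown arrays in orange and the symbol shape giving the pair. Within each row the groups do not overlap, with knockdown higher in the upper 18 rows and lower in the last 2. Rows are not comparable in level, since each is a different probe.

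The structural RNAs varied between arrays more than any other class. Their median within-group SD was 0.70 log2 units, against 0.22 for all tested NR_ probes and 0.20 for NM_ probes, and 93.3% of them had an SD above 0.3 against 26.6% of NM_ probes. Much of this spread lay on 1 array of each group. On control replicate 3, 29 of the 30 were below their own median over the arrays, by a median of 0.83 log2 units, and on knockdown replicate 1, 28 of 30 were, by a median of 1.04. The median deviation of NM_ probes on those arrays was -0.01 and 0.01, and that of the host genes -0.01 and -0.09.

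Rn28s1, the 28S ribosomal RNA entry, was at 7.11, 7.49 and 4.48 in control and 3.85, 7.25 and 7.14 in knockdown. Rnu1a1, a U1 spliceosomal RNA, was at 5.06, 5.46 and 2.92 in control and 3.01, 5.37 and 5.08 in knockdown. Rn7sk, the 7SK RNA that holds the elongation factor P-TEFb inactive, was at 2.63, 2.86 and 0.58 against 1.61, 2.94 and 2.88. In each, control replicate 3 and knockdown replicate 1 were the low arrays, and the other 4 values lay close together. Those arrays also had the highest 75th percentile intensity, 867.0 and 762.9 units against 531.5 to 600.6 on the others. The part of intensity or labelling in this pattern was not tested.

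Terc, the RNA template of telomerase, did not share the pattern, at -4.23, -4.71 and -4.56 in control and -4.28, -4.54 and -4.73 in knockdown (log2 difference -0.01, 95% interval -0.45 to 0.42). Rnu12, of the minor spliceosome, did not share it either, at 4.25, 4.71 and 4.71 in control and 5.0, 4.88 and 4.94 in knockdown. Its log2 difference was 0.38 ± 0.16 (SE; adjusted p = 0.269), and it was the structural RNA whose groups did not overlap. With knockdown higher, this held for 14.5% of all tested probes.

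Between groups, 0 of the 30 structural RNAs passed (limma, also 0 at an unadjusted p below 0.05), with a median log2 difference of -0.08 and a lowest adjusted p of 0.269. Rmrp, the RNA of RNase MRP, differed by 0.0 with a 95% interval of -1.11 to 1.12, so a change of about 2-fold either way was not detectable here. Without control replicate 3 and knockdown replicate 1, a setting added after seeing the data, the median within-group SD was 0.24, against 0.16 for NR_ and 0.12 for NM_ probes. The median difference was then -0.10, 0 of 30 passed (3 at an unadjusted p below 0.05) and the lowest adjusted p was 0.184.

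That lowest value was for Rpph1, the RNA of RNase P, which processes the 5′ ends of transfer RNAs. It was at 4.02, 3.90 and 3.11 in control and 1.49, 3.51 and 2.53 in knockdown, with overlapping groups, and was lower in knockdown in each of the 3 pairs, by -2.53, -0.39 and -0.59. Its log2 difference was -1.17 ± 0.50 (SE; adjusted p = 0.269), and -0.95 ± 0.32 (SE) over the other 4 arrays. The related Rprl1, Rprl2 and Rprl3 gave -0.66, -0.94 and -0.96, and each was also below 0 in all 3 pairs. These are annotated as RNase P RNA-like and may share signal with Rpph1, so they are not separate observations. Of the 10 listed proteins of RNase P and MRP, 13 probes were tested, 0 passed (0 at an unadjusted p below 0.05) and the median log2 difference was -0.04.

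**Figure D4:**
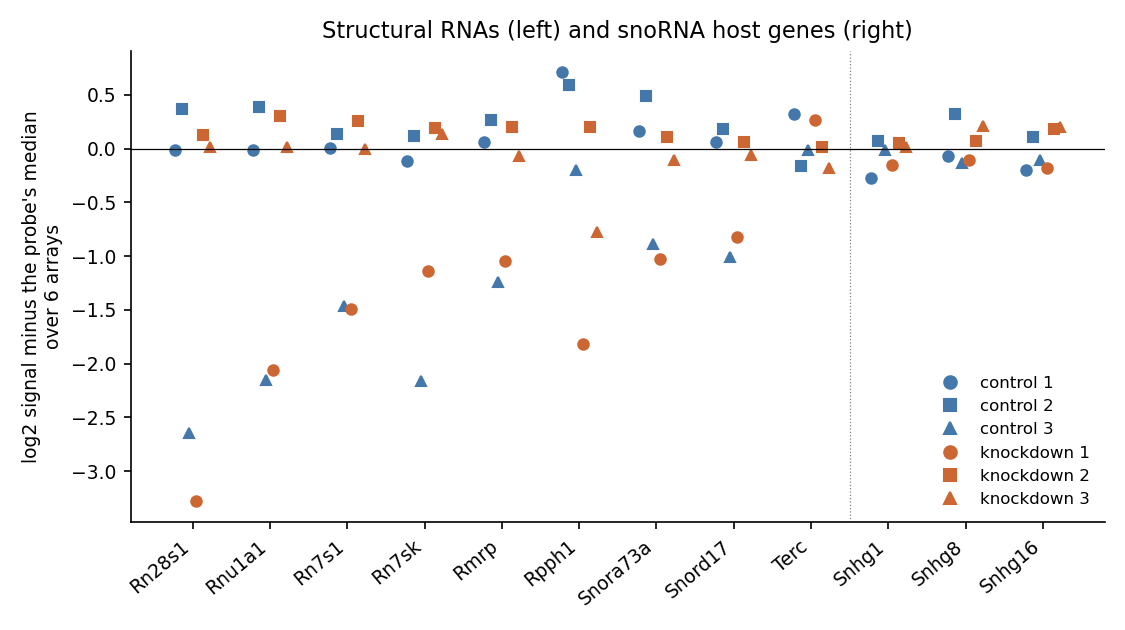
Normalised log2 signal of 9 structural RNAs (left of the dotted line) and 3 snoRNA host genes (right), each as the deviation from its own median over 6 arrays, with control in blue, knockdown in orange and the symbol shape giving the pair. Control replicate 3 (blue triangle) and knockdown replicate 1 (orange circle) lie well below the others for most structural RNAs. For Rn28s1 they read 4.48 and 3.85, where the other arrays read 7.11 to 7.49. They lie among the others for Terc, Snhg1 and Snhg16. For Snhg8 they are the lowest by a small margin, at 5.13 and 5.15 against 5.19 to 5.58.

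The host genes of snoRNAs are spliced, polyadenylated transcripts whose exons are often dispensable and whose introns carry the snoRNAs. They were bright, with a median of 3.50, and their groups were close. Of 16 tested host probes, 0 passed (limma, also 0 at an unadjusted p below 0.05), with log2 differences from -0.36 to 0.32 and a median of 0.02. Snhg1 was at 1.54, 1.88 and 1.80 in control and 1.66, 1.86 and 1.82 in knockdown, a difference of 0.04 (95% interval -0.31 to 0.38). Snhg7 had the lowest difference, -0.36 ± 0.18 (SE; adjusted p = 0.341), and Snhg18 the highest, 0.32 ± 0.16 (SE; adjusted p = 0.345). Among 14 probes of the 8 core snoRNP proteins (fibrillarin, dyskerin and partners), 0 passed (2 at an unadjusted p below 0.05), 13 were below 0 and the median was -0.23. Of all tested NM_ probes, 9595 of 19809 were below 0, with a median of 0.01. Some of the snoRNP probes share a gene, so they are not separate observations.

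The well-known nuclear and widely expressed RNAs did not pass in any of 14 tested probes, 5 of which had an unadjusted p below 0.05. Neat1, the scaffold of paraspeckles, was read by 2 dim probes, one at -3.75, -3.33 and -3.76 in control and -3.56, -3.51 and -3.87 in knockdown. They gave log2 differences of -0.03 (95% interval -0.45 to 0.39) and -0.32 (-0.99 to 0.36). Among 14 probes for 7 paraspeckle proteins, 0 passed (1 at an unadjusted p below 0.05) and the median was -0.17. Tug1 differed by -0.17 (95% interval -0.52 to 0.18).

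Pvt1, the long non-coding neighbour of Myc, had both probes higher in knockdown without overlap. Groups did not overlap, with knockdown higher, for 14.5% of all tested probes. Both Pvt1 probes read the same RNA on the same arrays, so they are not separate evidence. The brighter probe was at 2.82, 3.0 and 2.95 in control and 3.39, 3.35 and 3.52 in knockdown, a log2 difference of 0.50 ± 0.13 (SE; adjusted p = 0.0974). The other was at 0.68, 1.01 and 1.22 against 1.79, 1.43 and 1.49, a difference of 0.60 ± 0.18 (SE; adjusted p = 0.145). In a fit added after seeing the data, with 1 probe for each named gene, the brighter probe had an adjusted p of 0.0474 and so passed.

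Norad, a cytoplasmic RNA that binds Pumilio proteins, was lower in knockdown in all 4 of its probes, with differences from -0.30 to -0.51 and adjusted p from 0.195 to 0.405. Its brightest probe was at 5.35, 5.38 and 5.09 in control and 4.88, 5.04 and 5.0 in knockdown. In 3 of the 4 probes the groups did not overlap. With knockdown lower, this held for 12.4% of all tested probes. The 4 probes read the same RNA on the same arrays, so they are not separate evidence. Oip5os1 (Cyrano), which directs decay of the microRNA miR-7, was at 0.30, 0.48 and 0.68 in control and 1.0, 0.74 and 1.08 in knockdown, a difference of 0.46 ± 0.16 (SE; adjusted p = 0.187).

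Imprinted RNAs and those of X inactivation gave 10 tested probes, of which 0 passed (1 at an unadjusted p below 0.05). Kcnq1ot1, which silences the Kcnq1 domain on the paternal chromosome, was tested with 4 probes. All 4 were lower on average, by -0.23 to -0.43, with overlapping groups and adjusted p from 0.433 to 0.752. They read the same RNA on the same arrays, so they are not separate evidence. Another Kcnq1ot1 probe was well above background on no array. Airn, which acts the same way at Igf2r, was at 1.81, 1.35 and 1.55 in control and 2.27, 1.66 and 1.68 in knockdown, with an interval of -0.21 to 0.81. Another Airn probe was well above background on 1 array, from the knockdown group. Jpx, an activator of Xist, differed by 0.55 ± 0.16 (SE; adjusted p = 0.126) with no overlap between groups. With knockdown higher, this held for 14.5% of all tested probes. H19, Meg3, Rian and Xist were well above background on no array.

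Of the neural RNAs, 8 of 25 probes were tested and 0 passed (1 at an unadjusted p below 0.05). Pantr1 and Pantr2, which lie beside the neural transcription factor gene Pou3f3, were at 2.58, 2.72 and 2.69 against 2.90, 2.82 and 3.03, and at -2.0, -1.78 and -1.71 against -1.12, -1.68 and -0.95. The groups did not overlap in either, with differences of 0.25 ± 0.13 and 0.58 ± 0.21 (SE; adjusted p = 0.339 and 0.199). For Pantr2 they nearly touched, at -1.71 and -1.68. Such a lack of overlap, with knockdown higher, held for 14.5% of all tested probes. Sox2ot, the transcript that spans Sox2, differed by -0.23 (95% interval -0.58 to 0.12). Another Sox2ot probe was well above background on no array. Miat, Rmst, Dlx6os1 and the hosts of miR-124 and miR-9-3 were on no array.

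Of 12 probes for microRNA host transcripts, 7 were tested and 0 passed (also 0 at an unadjusted p below 0.05). The lowest difference was that of Mir100hg, host of miR-100 and let-7a-2, at -0.51 ± 0.23 (SE; adjusted p = 0.299). Of 13 tested probes for microRNA-processing proteins, 0 passed (2 at an unadjusted p below 0.05), with a median of -0.12. A list of interferon-linked non-coding transcripts, put together with the coding interferon genes of these data already seen, had 3 tested probes. These were 2 for Morrbid and 1 for Trim30e-ps1, with differences of -0.35, -0.37 and -0.10, all below 0, and 0 passed (0 at an unadjusted p below 0.05). AW112010, another of that list, was well above background on 1 of the 6 arrays.

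**Figure D5:**
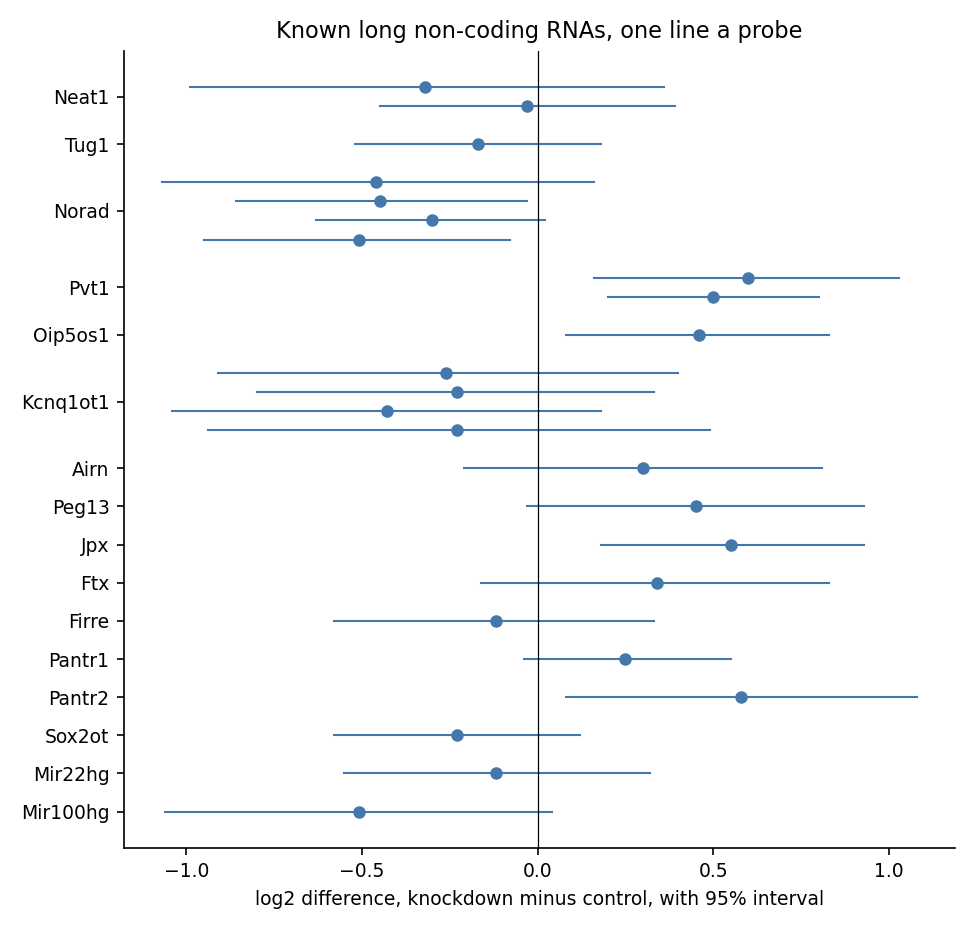
Log2 difference (knockdown minus control) of 16 known long non-coding RNAs, one point a probe, with the 95% interval of the limma fit over 3 control and 3 knockdown arrays. Both Pvt1 probes (0.50 and 0.60) lie above 0 with their intervals, all 4 Norad and all 4 Kcnq1ot1 points lie below 0, and no probe had an adjusted p below 0.05. Probes of the same RNA are not separate evidence.

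Antisense RNAs were compared with the coding gene they are named after. Of 54 tested antisense probes, 0 passed (12 at an unadjusted p below 0.05), and 41 had a tested coding partner, of which 0 passed. The signs of the log2 differences were the same in 23 and opposite in 18. Stamos, antisense to the endosomal sorting gene Stam, had the lowest adjusted p among them, with a difference of 0.92 ± 0.18 (SE; adjusted p = 0.0549) beside 0.23 ± 0.18 for Stam. Fam120aos (0.05 ± 0.12 SE) and its partner Fam120a (-0.54 ± 0.12 SE; adjusted p = 0.066) had opposite signs. Ptprtos (0.65 ± 0.29 SE) and Ptprt, a receptor tyrosine phosphatase gene (1.5 ± 0.31 SE; adjusted p = 0.0634), had the same sign.

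Probe sequences were not used here, so whether an NR_ probe reads only the isoform, pseudogene or antisense RNA it is assigned to was not checked. Under the assigned accessions, non-coding and coding transcripts of 1 gene could be set side by side for 30 NR_ probes of 28 genes. Signs were the same in 17 and opposite in 13, and 0 of the coding probes passed. Rbmx, a splicing regulator, had a non-coding probe at 0.36 ± 0.21 and a coding probe at -0.43 ± 0.21 (SE), and Sfpq, a paraspeckle protein, had 0.15 ± 0.14 and -0.31 ± 0.13. Snrnp70, the U1 snRNP protein, had 0.18 ± 0.25 and -0.23 ± 0.13, and Taf1d 0.03 ± 0.13 and -0.29 ± 0.17. These genes were picked after their values were seen, each with the non-coding probe above 0 and the coding probe below. The reverse held for Hikeshi (-0.21 and 0.30), Zfp672 (-0.19 and 0.34) and Slc8a1 (-0.22 and 0.27). It also held for Bmp1 (-0.07 and 0.08) and for an Alg13 probe (-0.20 and 0.10). Hnrnpa1 had both above 0 (0.54 and 0.10). None of these differences passed. For 12 probes of 8 nonsense-mediated decay proteins, 0 passed (1 at an unadjusted p below 0.05) and the median was -0.09. Over NR_ probes of every class, 51 symbols had at least 2 tested NR_ probes, and in 40 of them all probes had the same sign.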

How the data were processed

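Arrays of 3 control and 3 knockdown samples were read. The deposited scanner files hold the authors' spot intensity values, background-corrected by Agilent Feature Extraction 11.0.1.1, per the file headers. The series' deposited value table holds log2 values that equal log2 of the processed signal minus 1 constant an array (9.05 to 9.75, tolerance 0.01), with column medians from -4.46 to -4.21 and no centring of genes. Its direction is that of signal, and it served as an alternative.

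Outlier spots were dropped, spots of a probe averaged as log2 intensity, and the 75th percentile of the array subtracted. Probes well above background on at least 3 arrays, 31804 in all, were fitted with limma 3.58.1 (lmFit, eBayes, R 4.3.3) by group, two-sided, with Benjamini-Hochberg adjustment. NR_ probe values are rows of that fit. Symbols, classes and neighbours came from a RefSeq table of GRCm38.p6, which named 97.2% of the NR_ probes. Since the array's own build differs, no coordinates from that table are given. Promoter windows came from a separate RefSeq table. The files carry no gene name, description or mean signal column, so names rest on accessions, classes on the table's biotypes and symbols, and the normexp alternative on median signals (offset 50). Malat1, Gas5 and Mir17hg had no NR_ probe under that name here. The rRNA and signal recognition particle entries joined the small RNA class by their biotype.

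Dates in the titles pair the arrays. Within each pair, the residuals of both arrays after removing the group means correlated at -0.17, 0.60 and -0.34 over the 31804 probes. Nothing else in the labels says that samples of a group were separate cultures. The p-values therefore reflect array-to-array spread, which may be technical, and 3 arrays a group limit the precision. The scripts were tested on simulated data. Named members were the 5 largest rises and falls among clone symbols and up to 15 among other symbols (past the threshold, on all 6 arrays, same sign in every pair), up to 5 a direction detected in 1 group only, and known RNAs whatever their values. Other named probes were chosen after their values were seen. The members and lists were chosen with earlier results of these data known. Alternatives were quantile normalisation, normexp, other percentiles and filters, the deposited table, 1 probe a gene, the block and leaving out each array. The result of 1 marker list is not reported here.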

Additional observations from a re-analysis of the deposited data

How the results depend on the processing

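The count of NR_ probes past the threshold was 20 (18 higher, 2 lower). Quantile normalisation gave 14 (1.56%, against 1.3% of all probes) and the 75th percentile over detected probes 19 (2.11% against 1.8%). The authors' deposited values gave 20 (2.22% against 1.74%). Probes detected on all 6 arrays gave 21 (2.69% against 2.13%) and 1 probe a gene 24 (2.95% against 2.43%). The lower calls alone were 1 with the percentile over detected probes, and 4 both for probes on all 6 arrays and with 1 probe a gene. Normexp gave 7 (7 higher, 0 lower, 128 at an unadjusted p below 0.05), or 0.779% against 1.58% of all probes. No filter gave 0 higher and 0 lower (237 unadjusted), against 58 (0.102%) of all probes. With 1 probe a gene among named genes only, added after seeing the data, 58 passed (42 higher, 16 lower), 7.48% of NR_ genes beside 7.41% of all 14151 genes. The other members it called, such as Pvt1, Redrum and Stamos, had adjusted p above 0.05 in the comparison over all probes. The paired analysis with a replicate block gave 0 higher and 0 lower (lowest adjusted p 0.0742), and 0 of all 31804 probes. Leaving out 1 array gave 0 to 5 calls, 0 to 5 higher and 0 to 0 lower, against 0 to 192 (0.604%) of all probes. Without both control replicate 3 and knockdown replicate 1, also added, 0 passed (195 unadjusted, lowest adjusted p 0.0517), against 100 (0.314%) of all probes. The 20 kept their sign wherever they were tested, but normexp on median signals, whose offset of 50 units compresses dim probes by construction, moved the fold of 7 of them by over 1.5 times (1500026H17Rik, 2310043L19Rik, 3110015C05Rik, D630024D03Rik NR_102312, Gm11733, NR_033577 and Sytl2). The cause of the other changed counts was not tested.

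The detected share, 36.3%, was 40.7% on 1 or more and 31.5% on all 6 arrays, and 35.2% to 35.9% with 1 array left out. The NR_ minus NM_ gap, -5.05, was -2.84 among tested probes, -1.71 with normexp and -5.09 to -5.03 with 1 array left out. Ggct kept -2.97 with the replicate block (adjusted p = 0.0742) (the block leaves a balanced difference as it is), was -2.72 without control replicate 3 and knockdown replicate 1, and ranged from -3.12 to -2.78 with 1 array left out, where it missed the threshold without any 1 control or knockdown replicate 3 (adjusted p 0.0784 to 0.12).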
